A study of Mus musculus with 8 samples.

Results

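The 9 genes described here encode proteins that move chloride or bicarbonate across neuronal membranes, or kinases that control such transport. They are the importer Slc12a2 (NKCC1), the exporters Slc12a5 (KCC2) and Slc12a7 (KCC4), the ClC proteins Clcn2 and Clcn3, the kinases Wnk1 and Stk39 (SPAK), and the bicarbonate transporters Slc4a3 and Slc4a10. They were found by gene symbol, with transcripts of the same gene summed, and make up 9 of the 23335 gene names in the count table.

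GABA-A receptors are chloride channels, so the chloride gradient sets whether GABA moves the membrane potential of a neuron up or down. NKCC1 carries chloride into the cell and KCC2 carries it out, and mature cortical neurons are known for a high ratio of KCC2 to NKCC1. WNK kinases activate SPAK, which phosphorylates both kinds of cotransporter, switching NKCC1 on and the KCC exporters off.

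The study sequenced the mRNA of single interneurons that were picked by hand from mouse frontal cortex, with a random tag on each molecule so that molecules (UMI) and not reads were counted. Chandelier cells (ChC), which synapse onto the first stretch of pyramidal cell axons, came from Nkx2.1-CreER; Ai14 mice, in which tamoxifen given late in gestation turns on a red fluorescent reporter in cells with a history of Nkx2.1 expression. Fast-spiking basket cells (Pv) came from Pv-ires-Cre; Ai14 mice, in which the reporter follows the parvalbumin promoter. The sample labels list the same tamoxifen treatment for the Pv samples as for the ChC samples. Each of 8 library batches held 16 cells, and 126 of the 128 cells had counts. The ChC batches 1 and 2 came from animal 1 (postnatal day 31) and batches 3 and 4 from animal 2 (postnatal day 32). The Pv batches 5 and 6 came from animal 3 (postnatal day 29) and batches 7 and 8 from animal 4 (postnatal day 35). All 4 mice were female. Each cell type came from its own mouse line and flow cell, so a difference between types cannot be told apart from one between lines or flow cells. Batches 1, 2, 5 and 6 had lane number 1, and batches 3, 4, 7 and 8 had lane number 2. Within a cell type, a difference between animals thus cannot be told apart from one between lanes.

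UMI totals were 527743, 657957, 2898413 and 1307666 for ChC batches 1 to 4, and 456458, 501563, 370238 and 921212 for Pv batches 5 to 8. Levels are given in CPM, the UMI of a gene scaled to the UMI total of its batch, after TMM scaling between batches, with the mean and SD over the 4 batches of a cell type. Several libraries stood apart from the rest. Among genes with a median of at least 20 CPM in the other 7 batches, the share without any UMI was 8.41% in batch 1, 8.01% in batch 5 and 10.99% in batch 6. It was 3.89% in batch 2, 3.28% in batch 7, and between 0.564% and 1.15% in batches 3, 4 and 8. Genes that were abundant elsewhere were thus often absent from whole batches of 15 or 16 cells. Of the 9 genes, Slc12a2 had no UMI in batches 1, 2, 6 and 8, Clcn2 had none in batch 1, and Slc12a7 had none in batch 5. Wnk1, Slc4a3 and Slc12a7 had 1 UMI each in batch 1, Clcn2 had 1 UMI in batch 2, and Slc4a3 had 2 UMI in batch 5. Values of these genes are given below with all batches and without some of these. Batches 1, 5 and 6 all had lane number 1, as did batch 2. Batches 5 and 6 are all of animal 3, so values without batches 1, 5 and 6 have batches of 1 Pv animal only, and an effect of leaving out that animal cannot be told apart from one of leaving out these libraries.

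The labels of the cells were checked against marker genes. All 7 markers of interneurons from the medial ganglionic eminence were found. Their summed level lay between 8074 and 9601 CPM in ChC batches and between 3238 and 7158 CPM in Pv batches. Erbb4 was the most abundant over both cell types. In Pv batches, Slc32a1 had a higher mean (1882 CPM) than Erbb4 (1470 CPM). Pvalb, which encodes parvalbumin, lay between 75.9 and 165 CPM in ChC batches and between 414 and 1488 CPM in Pv batches. Of 7 pyramidal neuron markers, Slc17a6, Neurod6, Tbr1 and Emx1 had no UMI in any batch, while Slc17a7, the most abundant, reached 215 CPM in batch 7 and was absent from batches 1, 3 and 6. The interneuron markers were thus present in all 8 batches and the pyramidal markers were mostly absent or confined to single batches.

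ChC and Pv cells were compared on UMI summed per animal, 2 animals against 2, with edgeR's quasi-likelihood test and with Benjamini-Hochberg adjustment across the 9829 genes that passed a filter on low counts. No gene passed an adjusted p of 0.05 in edgeR (0% of those tested), 616 genes (6.27%) had an unadjusted p under 0.05, and DESeq2 called 174 of 9800 genes (1.78%). Of the 9 chloride genes, 8 passed the filter and 0 were called by edgeR or by DESeq2, also 0 at an unadjusted p under 0.05 in edgeR. Slc12a2 did not pass the filter. The median log2 ratio of ChC to Pv was 0.10 over the 8 genes and 0.04 over all genes tested, with 4 of the 8 higher in ChC and 4 higher in Pv. None of the differences below thus passed this test after adjustment, which does not show that the levels are equal.

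**Figure D1:**
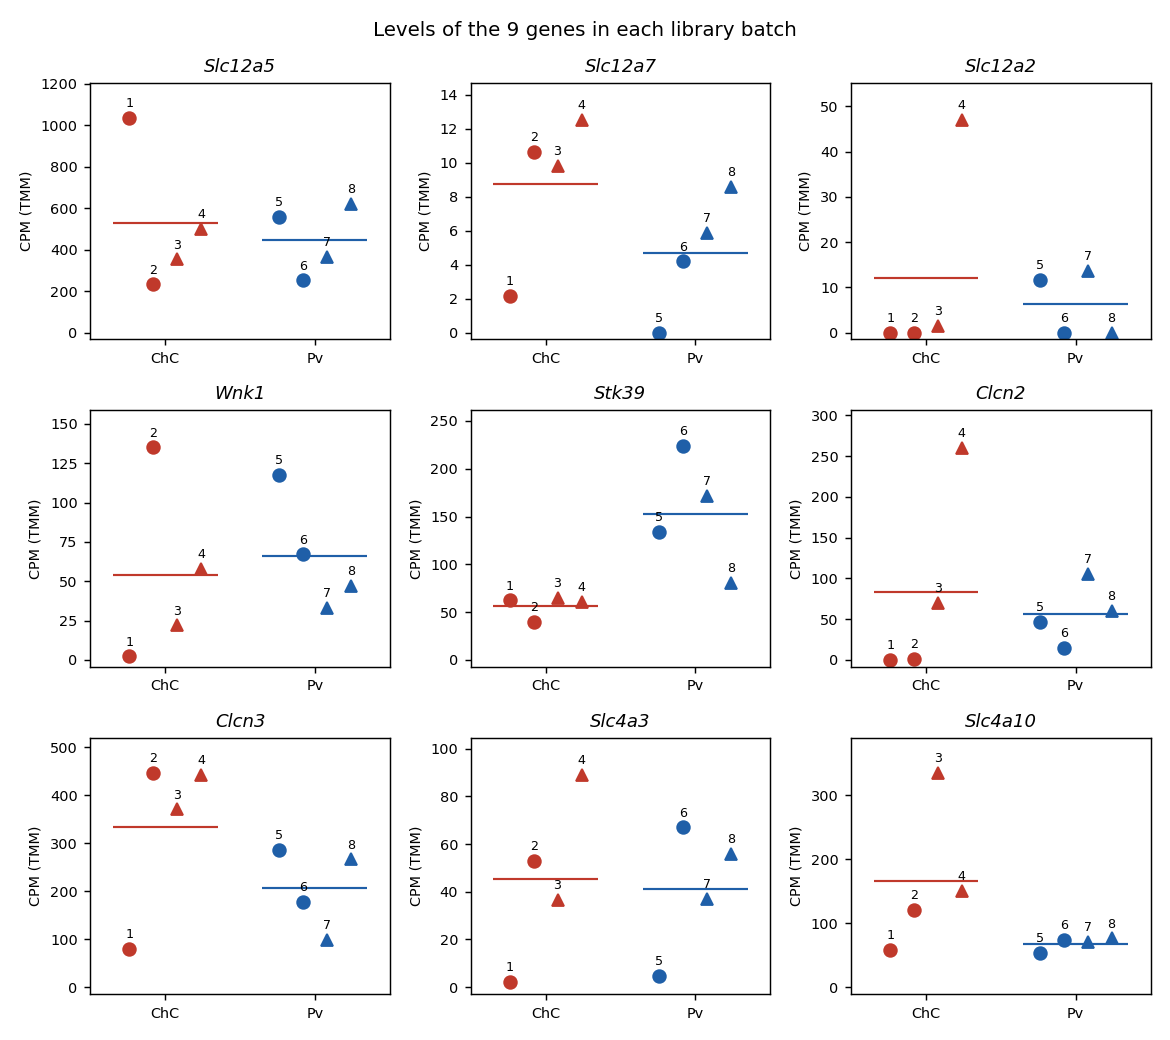
Level of each of the 9 genes (y axis, CPM with TMM scaling, from 0) in the 4 ChC batches (red) and the 4 Pv batches (blue), with the batch number beside each point; circles and triangles are the animals of a cell type and the line is the mean over batches. Stk39 was the gene whose groups did not overlap, with the highest ChC batch at 64.5 CPM and the lowest Pv batch at 80.5 CPM.

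Among the chloride exporters, Slc12a5 was found in both cell types at overlapping levels. Slc12a5, the neuronal K-Cl cotransporter, spans bases 164793488 to 164825231 of chromosome 2 (mm9, plus strand). Its level was 1036, 232, 353 and 499.8 CPM in ChC batches 1 to 4 and 558, 251, 363 and 619.6 CPM in Pv batches 5 to 8. The groups overlapped over nearly the whole range, and batch 1 was the highest of all 8. The mean was 530.2 ± 354 for ChC and 448 ± 171 for Pv (SD over 4 batches each). Per animal, the log2 ratio of ChC to Pv was -0.0022 with a standard error of 0.58 (edgeR, adjusted p = 0.999). Over the alternatives it took either sign, between -0.76 and 0.64, with no adjusted p under 0.951, so no direction can be given.

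Within animal 1, the level of Slc12a5 differed more than between the cell types. In cells with at least 10000 UMI, Slc12a5 ranged from 667 to 1065 CPM of the cell total in batch 1 (median 908, 11 cells) and from 159 to 305 in batch 2 (median 235, 10 cells). The cells of this pair of batches, picked from the same mouse, did not overlap. In animal 2 the medians were 329.9 CPM in batch 3 and 497 CPM in batch 4, in animal 3 they were 553 and 252, and in animal 4 they were 503 and 686. The difference between the batches of animal 1 was -2.15 on the log2(CPM + 1) scale, where the median absolute difference over the genes tested was 1.63.

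**Figure D2:**
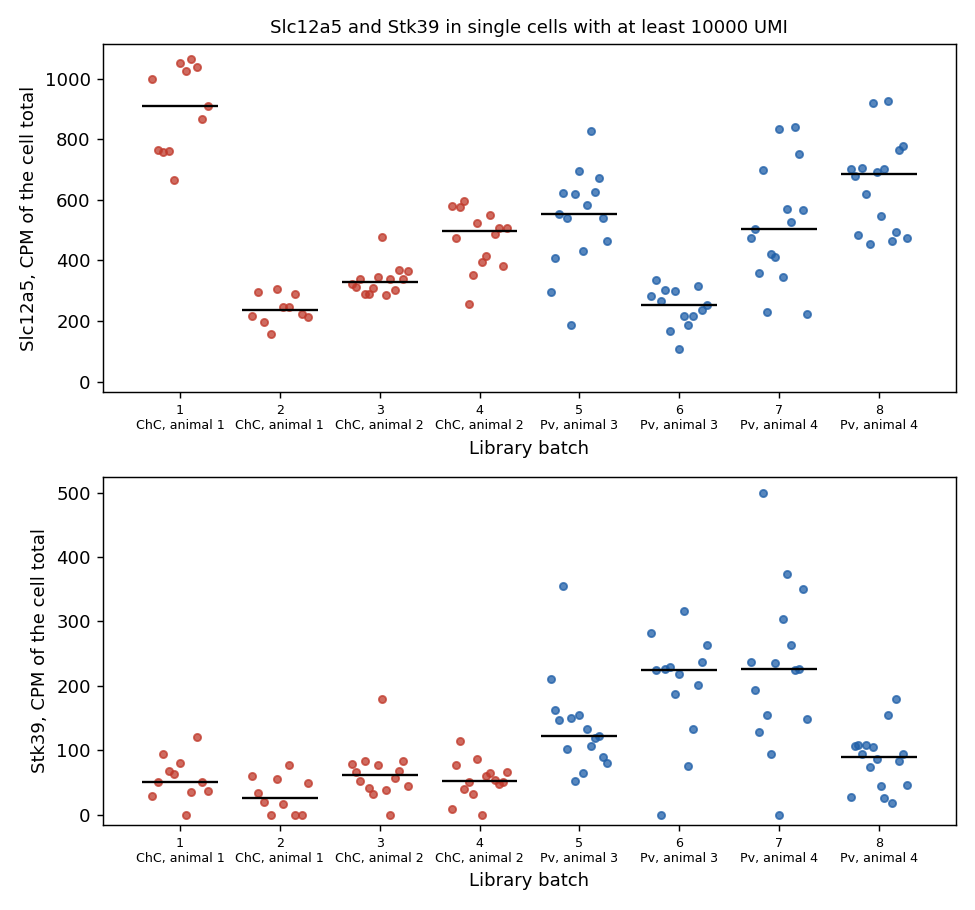
Slc12a5 (top) and Stk39 (bottom) in single cells with at least 10000 UMI, as CPM of the cell total (y axis), by library batch (x axis), with ChC in red, Pv in blue and the median of a batch as a black line. The Slc12a5 cells of batch 1 (667 to 1065 CPM) lie above those of batch 2 (159 to 305 CPM), while the lowest Pv median of Stk39, 89.9 CPM in batch 8, lies above every ChC median.

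A Slc12a5 UMI was found in nearly every cell. Of the 126 cells 122 had at least 1, with 59 of 63 ChC and all 63 Pv cells. The 4 cells without one were ChC cells of batches 1 and 2 with 1231, 7590, 4758 and 1053 UMI in all, among the shallower cells of the study. At 10000 UMI per cell, the share was 95.9% of 49 ChC cells (90.0% to 100% by batch) and 96.6% of 59 Pv cells (92.3% to 100% by batch).

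Slc12a5 is known to start from a pair of promoters, which the count table does not separate, since it holds 1 row for the gene. The windows of 250 bases before each start are shown in RefSeq's GRCm38.p6 sequence, plus strand. Whether molecules from both starts were counted in this row was not tested. Capitals mark CACGTG, the core of an E-box, which reads the same on both strands. It occurs in 6.02% of 32851 such windows of all genes and in 2 of the 12 windows of 8 of the 9 chloride genes. A match describes the letters only, and these counts do not bear on what binds there. The windows lie 7142 bases apart, at chr2:164960596-164960845 and chr2:164967738-164967987, and the match in the downstream window begins 36 bases before the start (position -36).
Slc12a5 upstream start: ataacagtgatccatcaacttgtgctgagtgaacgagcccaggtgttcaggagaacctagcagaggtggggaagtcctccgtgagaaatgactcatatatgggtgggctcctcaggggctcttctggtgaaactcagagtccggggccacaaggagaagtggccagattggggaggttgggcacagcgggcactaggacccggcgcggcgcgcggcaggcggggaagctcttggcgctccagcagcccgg
Slc12a5 downstream start: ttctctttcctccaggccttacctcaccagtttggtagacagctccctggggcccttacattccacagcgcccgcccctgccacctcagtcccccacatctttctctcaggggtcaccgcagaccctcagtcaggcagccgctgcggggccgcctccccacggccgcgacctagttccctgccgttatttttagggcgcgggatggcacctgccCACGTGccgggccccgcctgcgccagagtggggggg

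Slc12a7, a K-Cl cotransporter that is also found outside the brain, was close to the detection limit. The gene spans bases 73901145 to 73954190 of chromosome 13 (plus strand) and had 63 UMI in all. Its level was 2.14, 10.6, 9.81 and 12.5 CPM in ChC batches and 0, 4.19, 5.86 and 8.59 CPM in Pv batches. The groups overlapped, and the lowest batch of each cell type, 1 and 5, was among the libraries that stood apart. Without batches 1, 5 and 6, ChC batches lay between 9.81 and 12.5 CPM (n = 3) and Pv batches between 5.86 and 8.59 CPM (n = 2). In log2, ChC differed from Pv by 0.75 with a standard error of 1.38 (edgeR, adjusted p = 0.991). Its share of cells followed depth. It was found in 24 of 63 ChC and 11 of 63 Pv cells with all UMI, but in 2 of 49 and 3 of 59 at 10000 UMI per cell, so no order can be read from it.

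The importer Slc12a2, the Na-K-2Cl cotransporter, was absent from 4 of the 8 batches and found mostly in batch 4. The gene spans bases 58038332 to 58106475 of chromosome 18 (plus strand) and had 76 UMI in all, of which 78.9% were in batch 4. The UMI in ChC batches were 0, 0, 4 and 60, and those in Pv batches were 5, 0, 7 and 0. On the CPM scale these were 0, 0, 1.51 and 46.9 in ChC and 11.5, 0, 13.7 and 0 in Pv batches. Each cell type thus had 2 batches with and 2 batches without a UMI, and for the Pv cells each animal had 1 of either kind. A count of 0 allows up to 5.68 CPM of the total in batch 1, 4.56 in batch 2, 5.98 in batch 6 and 3.26 in batch 8. The mean was 12.1 ± 23.2 for ChC and 6.30 ± 7.33 for Pv (SD over 4 batches each), and without batch 4 the ChC mean was 0.503 ± 0.871 (SD, n = 3). Without batches 1, 5 and 6, the mean was 16.1 ± 26.7 in ChC (SD, n = 3) and 6.84 ± 9.67 in Pv (SD, n = 2). With no filter on low counts, the log2 ratio of ChC to Pv was 0.64 with a standard error of 1.96 (edgeR, adjusted p = 0.991). Over the alternatives in which Slc12a2 was fitted, its sign changed.

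Cells with a Slc12a2 UMI were 13 of 15 in batch 4, 6 of 16 in batch 7, 5 of 16 in batch 5 and 4 of 16 in batch 3. The exact binomial interval (95%, counting error only) was 59.5% to 98.3% in batch 4 and 7.27% to 52.4% in batch 3. No cell outside batch 4 had more than 2 UMI, and the highest cell of batch 4 had 14. For the batches without a UMI, the exact upper limit was 20.6% for 0 of 16 cells (batches 1, 2 and 8) and 21.8% for 0 of 15 (batch 6). These limits hold for cells with a UMI at the depth reached, not for cells that express the gene. At 10000 UMI per cell, Slc12a2 was found in 10.2% of ChC and 8.47% of Pv cells, between 0% and 28.6% by batch.

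Markers of several other cell types were also high in batch 4. Of 6 microglia markers, 5 had a UMI, C1qa had none and P2ry12 was the most abundant. Their summed level was 0, 1.52, 4.53 and 93.9 CPM in ChC batches and 0, 6.28, 9.76 and 1.07 CPM in Pv batches. In batch 4, 14 of 15 cells had a microglia marker UMI, among them all 13 cells with Slc12a2. The summed markers of choroid plexus and ependyma were 2.14, 0, 1.51 and 29.7 CPM in ChC batches and 0, 2.09, 0 and 2.15 CPM in Pv batches, with 2 of 3 found, Folr1 the most abundant and Ttr at 0. In batch 4, Folr1 alone made up this sum, with Ttr and Foxj1 at 0, so it rests on 1 gene. Of the 13 cells of batch 4 with Slc12a2, 11 had a UMI of these markers. Astrocyte markers, 5 of 6 found with Slc1a3 the most abundant and Gfap at 0, summed to 21.4, 115, 128 and 334 CPM in ChC batches and to 78.5, 43.98, 259.7 and 264 CPM in Pv batches. Some other sums were also highest among ChC batches in batch 4, while others were not. Oligodendrocyte precursor markers were at 4.29, 3.04, 0.755 and 1.56 CPM in ChC batches. Endothelial and mural markers were at 12.9, 15.2, 6.04 and 14.9 CPM there. Markers of other interneurons were at 55.8, 121, 292 and 1094 CPM in ChC batches and at 92.3, 467, 199 and 632 CPM in Pv batches. Pyramidal markers were at 10.7, 45.5, 4.90 and 88.4 CPM in ChC batches and at 11.5, 2.09, 242 and 26.8 CPM in Pv batches. Oligodendrocyte markers were at 15.01, 9.11, 152 and 208 CPM in ChC batches and reached 253 CPM in batch 6, which had no Slc12a2 UMI. In batch 5, which had 5 Slc12a2 UMI, the microglia and the choroid plexus markers were at 0. The part of other cells in the Slc12a2 counts was not tested.

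The balance of Slc12a5 to Slc12a2 was on the side of the exporter in every batch with both genes. Animal 1 had 636 Slc12a5 and 0 Slc12a2 UMI, animal 2 had 1575 and 64, animal 3 had 362 and 5, and animal 4 had 763 and 7. Per kb of the longest annotated transcript (6.024 kb for Slc12a5 and 6.52 kb for Slc12a2), Slc12a5 was at least 229-fold higher in animal 1, against a floor of 3 UMI per animal. It was 26.6-fold higher in animal 2, 78.4-fold in animal 3 and 118-fold in animal 4. The ChC animals thus lay on either side of the Pv animals.

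Without regard to length, the log2 of the Slc12a5 to Slc12a2 UMI was at least 7.73 in animal 1 and was 4.62, 6.18 and 6.77 in animals 2, 3 and 4. With animal 1 at its bound, the mean was 6.17 in ChC and 6.47 in Pv animals, a difference of -0.30 (two-sided exact permutation test, n = 2 and 2, p = 1, where the smallest p this design allows is 0.333). The sign of this difference turned in 8 of 20 alternatives, among them leaving out batch 4, 5 or 8 or animal 2, taking batches as samples, single-cell CPM and another treatment of the count of 0. With a pseudocount of 0.5 UMI in place of the floor it was 1.11, and without batch 4 it was 1.33 (exact permutation p = 1 and 0.333). Whether the balance differed between ChC and Pv cells was thus not detectable with these counts.

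As a share that needs no floor, a measure chosen after the data were seen, Slc12a5 made up 100% of the UMI of both genes in batches 1, 2, 6 and 8. The exact binomial lower limits (95%) there were 99.2%, 97.6%, 97.0% and 99.4%. It made up 99.6% in batch 3 (98.9% to 99.9%), 91.4% in batch 4 (89.1% to 93.4%), 98.0% in batch 5 (95.3% to 99.3%) and 96.4% in batch 7 (92.7% to 98.5%). Batch 4 thus lay apart from the other 3 ChC batches by more than counting error. No cell had more Slc12a2 than Slc12a5 UMI, and all 28 cells with Slc12a2 also had Slc12a5. The median Slc12a5 level in batch 4 was 508 CPM in the 13 cells with Slc12a2 and 459 CPM in the 2 cells without.

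Of the kinases, Stk39 was lower in every ChC batch than in any Pv batch. Stk39 encodes SPAK, the kinase that acts on the cotransporters directly, and spans bases 68048504 to 68310038 of chromosome 2 (minus strand). Its level was 62.2, 39.5, 64.5 and 60.2 CPM in ChC batches and 134, 224, 172 and 80.5 CPM in Pv batches. The ChC batches lay close together and below all Pv batches, of which batch 8 was the lowest. Such a separation, all Pv above all ChC, was found in 138 of the 9829 genes tested (1.4%), and Stk39 was 1 of the 8 chloride genes tested. The reverse, all ChC above all Pv, was found in 285 genes (2.9%) and in 0 of the 8. The mean was 56.6 ± 11.6 for ChC and 153 ± 60.6 for Pv (SD over 4 batches each), 2.70-fold higher in Pv.

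Per animal, Stk39 was at 47.98 and 60.8 CPM in the ChC animals and at 183 and 111 CPM in the Pv animals. On the log2 scale the ratio of ChC to Pv was -1.47 with a standard error of 0.94 (edgeR, adjusted p = 0.915), so the difference did not pass the test. It was negative under all 20 alternatives, between -1.81 and -1.06, with adjusted p between 0.628 and 0.9998. Without batches 1, 5 and 6 it was -1.15. The batches of Stk39 also did not overlap without TMM scaling or as the mean of single-cell CPM, where the highest ChC batch was at 56.2 and the lowest Pv batch at 84.5.

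At 10000 UMI per cell, a Stk39 UMI was found in 54.5%, 20.0%, 42.9% and 35.7% of the cells of ChC batches and in 66.7%, 84.6%, 93.3% and 68.8% of those of Pv batches. All Pv batches lay above all ChC batches in this share as well, as they did for 141 of the 9829 genes tested (1.43%). Over all batches this was 19 of 49 ChC cells (38.8%) and 46 of 59 Pv cells (78.0%). With all UMI the shares were 71.4% and 95.2%, and the groups met, with ChC batch 4 and Pv batch 6 both at 86.7%. At 5000 UMI per cell they were 29.3% and 55.7%, and the groups overlapped, with batch 8 at 31.3% and ChC batches 1 and 4 at 35.7%.

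Wnk1, the kinase upstream of SPAK, differed widely between the batches of animal 1. The gene spans bases 119873987 to 119988673 of chromosome 6 (minus strand). Its level was 2.14, 135, 21.9 and 57.9 CPM in ChC batches and 118, 67.0, 33.2 and 47.2 CPM in Pv batches. The lowest and the highest of the 8 values, in batches 1 and 2, both came from animal 1, and the groups overlapped. On the log2(CPM + 1) scale, the batches of an animal differed by 5.44 in animal 1, 1.36 in animal 2, -0.80 in animal 3 and 0.50 in animal 4. The mean was 54.2 ± 58.6 for ChC and 66.3 ± 36.96 for Pv (SD over 4 batches each). Without batch 1, the ChC mean was 71.6 ± 57.8 (SD, n = 3), which is above the Pv mean. Without batch 2, it was 27.3 ± 28.3 (SD, n = 3), which is below the Pv mean. The fitted log2 ratio of ChC to Pv was -0.29 with a standard error of 1.15 (edgeR, adjusted p = 0.999). Without batch 2 this ratio was -1.95. Without batches 1, 5 and 6 it was 1.06, and over all alternatives adjusted p lay between 0.883 and 0.9998.

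Clcn2 was close to absent in animal 1 and abundant in animal 2. It encodes the ClC-2 channel of the cell membrane, through which chloride can leave neurons, and spans bases 20703039 to 20716709 of chromosome 16 (minus strand). It shares 71 bases with Fam131a on the opposite strand, so reads in that stretch may be shared. Its level was 0, 1.52, 69.4 and 260.5 CPM in ChC batches and 46.1, 14.7, 105 and 60.1 CPM in Pv batches. The ChC batches thus held both the lowest values and the highest, and the Pv batches lay between them. As cells with a UMI, Clcn2 was found in 0, 1, 14 and 14 of the 16, 16, 16 and 15 cells of the ChC batches and in 11, 5, 14 and 15 of the 16, 15, 16 and 16 cells of the Pv batches. The mean was 82.8 ± 123 for ChC and 56.6 ± 37.7 for Pv (SD over 4 batches each), and without batch 4 the ChC mean was 23.6 ± 39.6 (SD, n = 3). Without batches 1, 5 and 6, the mean was 110.5 ± 134 in ChC (SD, n = 3) and 82.8 ± 32.1 in Pv (SD, n = 2). In log2, ChC differed from Pv by 0.21 with a standard error of 1.69 (edgeR, adjusted p = 0.999). Without animal 2 it was -5.74 (adjusted p = 0.508), where the lone ChC animal is assumed to vary like the Pv animals, and over the alternatives adjusted p lay between 0.508 and 0.9998. The range of Clcn2 within ChC cells was thus wide. In both cell types, Clcn2 was also higher in the batches with lane number 2 than in those with lane number 1. Batches 3, 4, 7 and 8 lay between 60.1 and 260.5 CPM, and batches 1, 2, 5 and 6 between 0 and 46.1 CPM. How many other genes were ordered this way was not counted. Lane cannot be told apart from animal within a cell type, and the part of either was not tested.

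Clcn3 encodes ClC-3, a chloride-proton exchanger of endosomes and synaptic vesicles. It spans bases 63389186 to 63462108 of chromosome 8 (minus strand) and is the only gene of the 9 with 2 rows in the table. These rows held 1250 and 1135 UMI and were equal in 106 of 126 cells, so that the summed level counts most molecules in both rows. The summed level was 79.3, 446, 370.5 and 442 CPM in ChC batches and 286, 178, 97.6 and 266 CPM in Pv batches. Of the ChC batches, 3 lay above all Pv batches, and batch 1 lay below all of them. From the row with the most UMI alone, ChC batches were at 47.9, 259.9, 240.4 and 260.5 CPM and Pv batches at 167, 106, 57.1 and 157 CPM, which is the same pattern. The summed mean was 334 ± 174 for ChC and 207 ± 86.7 for Pv (SD over 4 batches each). Without batch 1, the ChC mean was 419.5 ± 42.5 (SD, n = 3). On the log2 scale the ratio of ChC to Pv was 0.58 with a standard error of 0.65 (edgeR, adjusted p = 0.991). It was positive under all 20 alternatives, from 0.03 without batch 2 to 1.04 without batches 1, 5 and 6, with adjusted p between 0.882 and 0.9998.

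The bicarbonate transporter Slc4a10 varied more between ChC than between Pv batches, and the groups overlapped. It encodes a sodium-driven bicarbonate transporter of neurons, which links acid extrusion to chloride, and spans bases 61884572 to 62164800 of chromosome 2 (plus strand). Its level was 57.9, 121, 335 and 151 CPM in ChC batches and 53.1, 73.3, 70.3 and 76.2 CPM in Pv batches. ChC batches 2, 3 and 4 lay above all Pv batches and batch 1 lay among them. The mean was 166 ± 119 for ChC and 68.2 ± 10.4 for Pv (SD over 4 batches each), and without batch 3 the ChC mean was 110.1 ± 47.6 (SD, n = 3). Per animal, it was at 93.4 and 265 CPM in ChC and at 64.3 and 73.1 CPM in Pv animals. Without TMM scaling, the Pv batches ranged from 50.4 to 97.2 CPM with an SD of 19.4, so their closeness depended on the scaling. The fitted log2 ratio of ChC to Pv was 1.33 with a standard error of 0.93 (edgeR, adjusted p = 0.934), which did not pass the test. It was positive under all 20 alternatives, from 0.44 without animal 2 to 1.88 without animal 1, with adjusted p between 0.714 and 0.9998. At 10000 UMI per cell, Slc4a10 was found in 71.4% of ChC cells (27.3% to 100% by batch) and in 62.7% of Pv cells (46.7% to 80.0%). These shares depended on depth. With all UMI they were 87.3% in both cell types, and at 5000 UMI per cell 56.9% in ChC and 34.4% in Pv cells.

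Slc4a3, a chloride-bicarbonate exchanger that brings chloride into the cell, showed no difference that could be read from these counts. It spans bases 75542841 to 75556006 of chromosome 1 (plus strand). Its level was 2.14, 53.1, 36.6 and 89.2 CPM in ChC batches and 4.61, 67.0, 37.1 and 55.8 CPM in Pv batches. The lowest value of each cell type came from batch 1 or batch 5, and the rest overlapped. The mean was 45.3 ± 36.2 for ChC and 41.1 ± 27.3 for Pv (SD over 4 batches each). Without batch 1 the ChC mean was 59.6 ± 26.9 (SD, n = 3), and without batch 5 the Pv mean was 53.3 ± 15.1 (SD, n = 3). In log2, ChC differed from Pv by -0.10 with a standard error of 1.18 (edgeR, adjusted p = 0.999), and over the alternatives its sign changed.

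Levels of different genes were compared per kb of the longest annotated transcript, with 1 row per gene. Slc12a5 had the highest mean, at 94.99 ± 50.9 CPM per kb (SD, n = 8 batches), and was the highest of the 9 in all batches but 2, 3 and 6, where Clcn3, Slc4a10 and Stk39 were above it. Stk39 (34.6 ± 21.7), Clcn3 (28.5 ± 15.3), Slc4a10 (25.01 ± 20.1), Clcn2 (20.7 ± 25.4), Slc4a3 (7.04 ± 4.86) and Wnk1 (6.66 ± 5.05) had lower means, and each was above the following one in 4 to 7 of 8 batches. These means pool both cell types, and no order among these 6 genes is claimed. Slc12a2 (1.66 ± 2.93) and Slc12a7 (1.53 ± 1.00) had the lowest means. The lengths assume that the longest annotated form is the one transcribed, and molecules primed at the polyA tail need not scale with length.

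**Figure D3:**
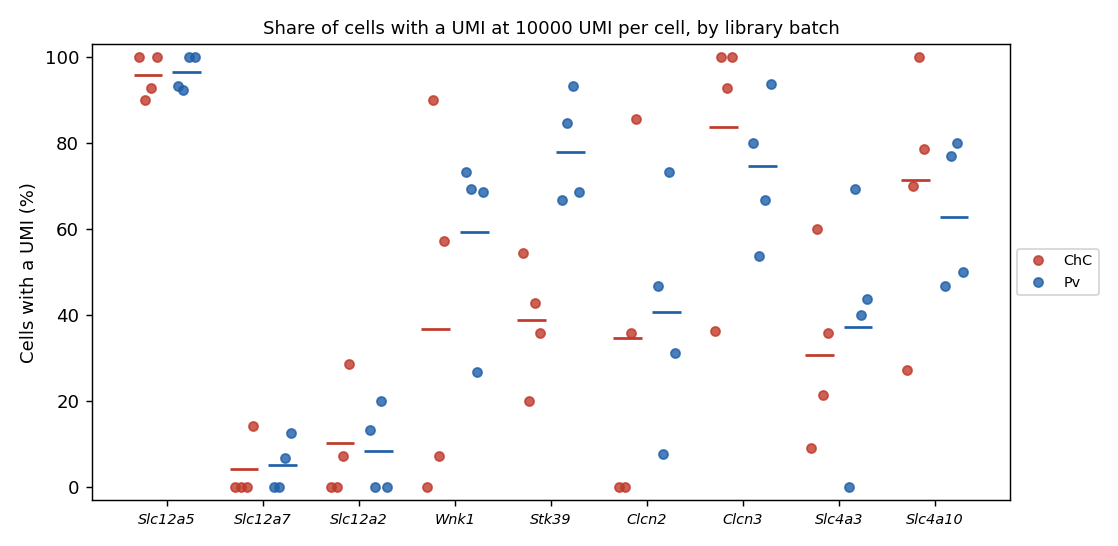
Percent of cells with a UMI of each gene (y axis) after thinning each cell to 10000 UMI, in ChC batches (red points) and Pv batches (blue points), with a line for all cells of a type (49 ChC and 59 Pv cells). Slc12a5 was found in 95.9% and 96.6% of cells, and Stk39 in 38.8% of ChC and 78.0% of Pv cells.

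Several of the 9 genes were found in the same cells. At 10000 UMI per cell, a ChC cell had a UMI of between 1 and 7 of the 9 genes, with a median of 4, and a Pv cell of between 2 and 7, with a median of 5. Slc12a5 and Stk39 were found together in 45 of 59 Pv cells and in 19 of 49 ChC cells, and Slc12a5 alone of this pair in 12 Pv and 28 ChC cells. Slc12a5 and Slc4a10 were found together in 37 Pv and 33 ChC cells. Since Slc12a5 was found in 57 of the 59 Pv cells, the cells it shared with Stk39 mostly restate the 46 Pv cells with Stk39. Both kinases had a UMI in 24 of 59 Pv cells and in 5 of 49 ChC cells, while neither was seen in 2 Pv and 17 ChC cells. These counts hold for this depth only. Wnk1 was found in 36.7% of ChC and 59.3% of Pv cells here, but in 25.9% and 19.7% at 5000 UMI per cell. Since batches differ in these genes, the cells of a type are not independent and no test was made on them.

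Batches of the same animal differed in most genes. On the log2(CPM + 1) scale, the median absolute difference between the batches of an animal over the 9 genes was 1.89 in animal 1, 1.14 in animal 2, 1.15 in animal 3 and 0.77 in animal 4. Over the 9829 genes tested it was 1.63, 1.21, 1.73 and 1.34. The largest among the 9 genes was Wnk1 in animal 1, at 5.44, followed by Slc12a2 in animal 2, at 4.26.

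Other genes of the pathway were read from the same fit, as 7 lists. Of 62 genes listed 61 were in the table, 57 had a UMI and 42 were tested. None was called by edgeR or by DESeq2, and 5 had an unadjusted p under 0.05 in edgeR (616 of 9829 over all genes). The median log2 ratio of ChC to Pv was 0.26, beside 0.04 over all genes tested, with 25 genes higher in ChC and 17 higher in Pv. Of the 42, 1 gene lay higher in all Pv batches and 0 lay higher in all ChC batches. Over all 9829 genes tested, these separations were found in 138 genes (1.4%) and 285 genes (2.9%). The lists as a whole thus showed no call in either direction.

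Outside the 9 genes, 3 of 6 cation-chloride cotransporters were tested, 2 higher in ChC and 1 higher in Pv. Slc12a4 (KCC1), the widely expressed K-Cl exporter, was at 11.9 ± 16.7 CPM in ChC and 63.8 ± 60.8 CPM in Pv batches (SD, n = 4), with batch 6 at 153 CPM. The groups overlapped. Slc12a3 (the renal Na-Cl cotransporter) had no UMI and Slc12a1 (NKCC2) had 3.

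Among the regulators, 7 of 9 genes of the WNK and SPAK list in the table were tested, 3 higher in ChC and 4 higher in Pv. The most abundant were Cab39 (MO25), which activates SPAK, and Sgk1, a kinase induced by steroids. Sgk1 was at 8.58, 1.52, 44.1 and 21.1 CPM in ChC batches and at 459, 129.8, 459 and 107 CPM in Pv batches. It was the 1 gene of the 42 tested in the lists with all Pv batches above all ChC batches, as found in 1.4% of all genes tested. Like Stk39, Sgk1 was lower in the ChC batches. The fitted log2 ratio of ChC to Pv for Sgk1 was -3.73 with a standard error of 1.15 (edgeR, unadjusted p = 0.0112, adjusted p = 0.636). Cab39 was at 118 ± 177 CPM in ChC and 266 ± 239 CPM in Pv batches (SD, n = 4), a difference within the spread.

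For the ClC family and its partner subunits, 5 of 9 genes were tested, 1 higher in ChC and 4 higher in Pv, with a median log2 fold change of -0.78. Clcn4-2 (ClC-4), an endosomal exchanger like ClC-3, was at 224 ± 109 CPM in ChC and 403 ± 194 CPM in Pv batches (SD, n = 4). Clcn7, the lysosomal exchanger, was at 10.5 ± 18.5 and 27.7 ± 22.3 CPM. Both differences were within the spread between batches.

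Of 13 bicarbonate transporters and carbonic anhydrases, 7 were tested, 5 higher in ChC and 2 higher in Pv. Slc4a4, a sodium-bicarbonate cotransporter, was at 190.1 ± 84.5 CPM in ChC and 166 ± 108 CPM in Pv batches, and Car2, a cytosolic carbonic anhydrase, at 25.2 ± 27.3 and 54.4 ± 61.6 CPM (SD, n = 4). By batch, Car2 was at 2.14, 25.8, 9.43 and 63.4 CPM in ChC and at 83.1, 128, 5.86 and 1.07 CPM in Pv. The groups overlapped, and the high Pv values both came from animal 3. Car7, known as a neuronal carbonic anhydrase, had no UMI in any of the 126 cells.

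Of 12 other chloride channel genes, 9 were tested, 7 higher in ChC and 2 higher in Pv. Ttyh3 was at 547 ± 634 CPM in ChC and 131 ± 35.3 CPM in Pv batches (SD, n = 4), with batch 2 at 1445 CPM and batch 1 at 75.1 CPM. Its log2 ratio of ChC to Pv was 2.15 with a standard error of 0.78 (edgeR, unadjusted p = 0.0245, adjusted p = 0.704). Ttyh1 was at 172 ± 95.4 and 129.97 ± 87.8 CPM, so the tweety genes overlapped between the cell types.

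The sodium pump maintains the gradients that the cotransporters use, and all 6 of its listed genes were tested. Of these, 4 were higher in ChC and 2 higher in Pv, with a median log2 ratio of ChC to Pv of 0.44. Atp1b1, a beta subunit, was at 499.6 ± 256 CPM in ChC and 1109 ± 662 CPM in Pv batches (SD, n = 4). The log2 fold change of Atp1b1, ChC over Pv, was -1.23 with a standard error of 0.58 (edgeR, adjusted p = 0.817).

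Of 6 partners and regulators of KCC2, 5 were tested, 3 higher in ChC and 2 higher in Pv. Ntrk2, the receptor of BDNF, was at 463, 1046, 1337 and 1287 CPM in ChC batches and at 178, 134, 502 and 517 CPM in Pv batches. ChC batches 2, 3 and 4 lay above all Pv batches and batch 1 among them, as for Slc4a10. Its log2 ratio of ChC to Pv was 1.59 with a standard error of 0.68 (edgeR, unadjusted p = 0.0479, adjusted p = 0.792). Ckb, brain creatine kinase, was at 767 ± 276 CPM in ChC and 1164 ± 520.1 CPM in Pv batches (SD, n = 4).

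The genes whose pattern over the 8 batches was most like that of Slc12a5 were Ten1, Rbfox1 and Luzp1, among 1917 genes with at least 10 UMI in every batch. Likeness was the root mean square difference of log2(CPM + 1), each gene centred on its own mean, and was 0.36, 0.41 and 0.42, beside a median of 1.10. All 3 were highest in batch 1, as Slc12a5 was. For Slc12a2, which itself has fewer UMI, the closest of 1918 genes were Zfyve9, Kcnip4 and Nbas, at 1.14, 1.22 and 1.31 beside a median of 2.34. Each of these 3 genes was highest in batch 4. These values describe the batches and not the cell types.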

How the data were processed

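The authors mapped the reads to mm9 with Bowtie 0.12.7, counted reads of a transcript with the same random tag as 1 molecule, and deposited these counts for 27207 transcripts and 128 cells without normalization. Here, 2 cells without counts were left out and transcripts were summed per gene name. Counts were summed per animal for edgeR 4.0.16 (TMM, filterByExpr, quasi-likelihood test, Benjamini-Hochberg adjustment over all genes tested, threshold 0.05) in R 4.3.3, with DESeq2 1.42.0 as an alternative, and per batch for levels. Exact permutation tests, thinning (10000 or 5000 UMI drawn per cell without replacement, shallower cells left out) and plots used Python 3.11.15, numpy 2.4.6, pandas 2.3.3, scipy 1.17.1 and matplotlib 3.10.9.

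Depth limits precision, with 370238 UMI in the shallowest batch. Intervals and floors (3 counts) cover counting error only. At 10000 UMI, 108 cells were kept, 49 ChC and 59 Pv.

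The 9 genes are always named. Of each pathway list, genes past the threshold and up to 2 with the highest mean CPM are named, and of each marker list the most abundant gene and genes at 0. Genes with an unadjusted p or a separation of batches that are not among these were counted only. The genes and lists were chosen with earlier results of these data known. Over the 8 batches, summed marker levels were 55.8 to 1094 CPM for other interneurons (Cck most abundant, Vip at 0). They were 9.11 to 253 CPM for oligodendrocytes (Mbp most abundant, Mag and Mobp at 0). For oligodendrocyte precursors they were 0 to 52.6 CPM (Pdgfra most abundant, Cspg4 and Olig2 at 0). For endothelial and mural cells they were 4.61 to 115 CPM (Rgs5 most abundant, Cldn5 at 0). Alternatives used batches as samples, no TMM scaling, no filter, 1 transcript per gene, cells of at least 10000 UMI, thinned cells, and each batch or animal left out, and for the balance also a pseudocount, single-cell CPM and sums of the KCC and NKCC genes. Leaving out batches 1, 5 and 6, the share of Slc12a5 and the balance per kb were chosen after the data were seen.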

Additional observations from a re-analysis of the deposited data

Results flagged for a closer look

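Of 64 groups of 4 batches examined, 8 held a batch far from the other 3. For 4 independent normal values chance sets apart about 1 group in 20, but these values are skewed, come from 2 animals a group and partly rest on the same counts, so that rate may not hold here. In ChC batch 4, Slc12a2 was at 46.9 CPM while the other ChC batches lay between 0 and 1.51 CPM, and Slc12a5 made up 91.4% of the UMI of both genes against 99.6% to 100% in the others. The summed microglia markers of the same batch were at 93.9 CPM against 0 to 4.53 CPM. Those of choroid plexus and ependyma were at 29.7 CPM against 0 to 2.14 CPM, and in batch 4 this sum was Folr1 alone. Cab39 was at 380.1 CPM in ChC batch 4 against 6.43 to 69.8 CPM. In ChC batch 3, Clcn7 was at 38.1 CPM against 0 to 3.91 CPM. In Pv batch 7, the summed pyramidal neuron markers were at 242 CPM against 2.09 to 26.8 CPM. In Pv batch 8, the summed markers of oligodendrocyte precursors were at 52.6 CPM against 0 to 7.81 CPM. The part of other cell types in the gene levels of batches 4 and 7 was not tested.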

How the results depend on the processing

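No paired analysis was possible because replicate numbers only name batches in accession order and each animal gave cells of 1 type. Each of the 20 alternatives gave an adjusted p for 7 to 9 of the 9 genes and called none of them, with Slc12a7 fitted in 15 and Slc12a2 in 8. The log2 ratio of ChC to Pv kept its sign for Stk39, Slc4a10, Clcn3 and Slc12a7 in every fit that included them. The number of genes called over the whole table, 0 in edgeR with animals, was 5 with batches as samples, 174 with DESeq2, 80 with no filter, 1 with thinned cells and 16 without batches 1, 5 and 6 (which leaves 1 Pv animal), and ran from 0 to 100 with a batch or animal left out (1 without batch 7, and 17, 51, 7 and 100 without animals 1, 2, 3 and 4). The cause was not tested.

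Directions turned as follows. Slc12a5, at -0.0022, was 0.16 with batches as samples, 0.0029 with DESeq2, 0.027 with no filter, 0.0080 with 1 transcript per gene, 0.018 with deep cells only, 0.019 with thinned cells, and -0.60 to 0.64 with a batch or animal left out. Slc4a3 was 0.061 with batches as samples, 0.12 without batches 1, 5 and 6, and -0.71 to 0.55 with a batch or animal left out. Clcn2 was -0.28 without batches 1, 5 and 6 and -5.74 to 1.33 with a batch or animal left out, and Wnk1 1.06 and -1.95 to 0.41. The difference in balance, -0.30 on the log2 scale, was 0.26 with batches as samples, 1.11 with the pseudocount, 0.037 from single-cell CPM, 0.15 for the KCC over the NKCC genes, and -1.85 to 1.33 with a batch or animal left out. Of 54 levels under other scalings, 53 moved by less than the SD between batches, while 14 of 36 shares of cells moved by more with another depth. The 370238 UMI of the shallowest batch limit genes of a few CPM.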
